A study of Mus musculus with 3 samples.

Results

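The 50 genes of the proteasome family described here were measured in 3 RNA-Seq libraries of tdTomato-positive cells sorted from mouse hippocampus. They are the protein-coding genes whose GENCODE vM21 symbol begins with Psma, Psmb, Psmc, Psmd, Psme, Psmf or Psmg and then a digit, out of 52636 genes in the count table, of which 52403 could be named and 21806 were nuclear and protein-coding. The libraries formed 1 group of male C57BL/6J mice of genotype Camk2a-Cre +/-, Ai14 +/- at postnatal day 28 to 32, and each of the 3 biological replicates pooled cells of 2 to 4 mice. The Camk2a promoter drives Cre in part of the excitatory neurons of the forebrain, and the Ai14 allele makes the red fluorescent protein tdTomato in any cell in which Cre has been active and in its descendants. Live tdTomato-positive cells were sorted from papain-dissociated whole hippocampi. Since all samples analysed here belong to this group, the comparisons below are between genes within the same libraries and not between conditions.

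The proteasome is the protease that degrades ubiquitin-tagged proteins in the cytosol and nucleus. Its barrel-shaped core particle is built of alpha rings (Psma genes), which gate the entrance, and beta rings (Psmb genes), of which Psmb5, Psmb6 and Psmb7 encode the subunits with proteolytic sites. A regulatory particle caps the barrel. Its base holds a ring of ATPases (Psmc genes) that unfold substrates, and its lid removes the ubiquitin chain. Psmb8, Psmb9 and Psmb10 are made in immune cells and are induced by interferon-gamma in many others, and their products replace Psmb5, Psmb6 and Psmb7 in newly built particles. The result is called the immunoproteasome, and it favours the production of peptides for display on MHC class I. Neurons depend on the constitutive form for protein turnover at the synapse.

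The libraries held 48159841, 25686630 and 15833075 assigned counts (replicates 1, 2 and 3), a 3.04-fold range. Levels are given as TPM, the count per base of merged exon scaled to 1000000 over all nuclear protein-coding genes of a library, so that genes of different length can be set side by side. All 6 markers of CA1 pyramidal neurons and all 4 of excitatory neurons were detected, and the CA1 list summed to 1451, 1539 and 1398 TPM. The 4 markers of dentate granule neurons were detected as well and summed to 1064, 974 and 1026 TPM. Most of this was C1ql2 at 658, 601 and 606 TPM. Calb1, which part of the CA1 pyramidal neurons also make, gave 168, 176 and 182 TPM. The cell type given by the label thus does not cover all transcripts in the libraries. Of 5 interneuron markers 1 was detected, and their sums were 67.3, 48.7 and 86.0 TPM. Oligodendrocyte markers summed to 1086, 1128 and 1058 TPM, astrocyte markers to 257, 159 and 323 TPM and microglial markers to 94.2, 101 and 134 TPM. Endothelial markers summed to 13.3, 25.1 and 85.0 TPM and differed most between libraries.

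Of the 50 genes, 46 were detected (at least 1 CPM, counts scaled to 1000000 assigned, in each library), while 57.2% of all nuclear protein-coding genes met this rule. The 4 that did not were the immunoproteasome subunits Psmb8 and Psmb9, the testis subunit Psma8 and the thymus subunit Psmb11. Together the 50 genes made up 5396 ± 123 TPM (SD, n = 3), which is 0.540% of the protein-coding total, and their median was 85.2 ± 2.43 TPM. The median of the protein-coding genes with a count in any library was 18.7 TPM, and 44 of the 50 lay above it. In the ranking by mean TPM, 43 of 49 neighbouring pairs overlapped in their library values, so most steps in the order were within the spread between replicates. The clearest step was below Psmc3ip, from 6.19 TPM in its lowest library to 0.318 TPM in the highest library of Psmb9. Over the 46 detected genes the order of levels had a Spearman rho of 0.983 to 0.994 between pairs of libraries.

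**Figure D1:**
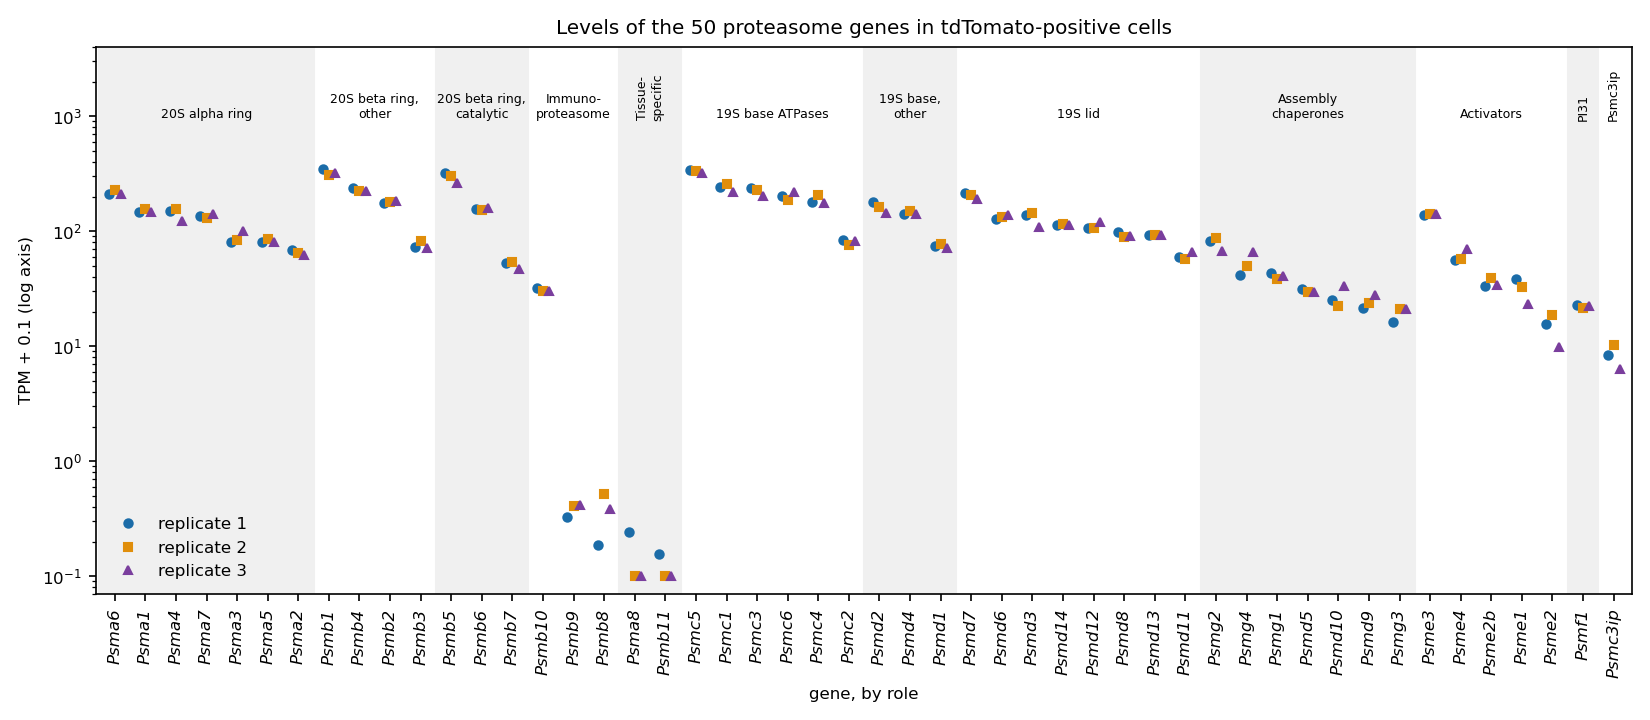
TPM plus 0.1 (log axis) of each of the 50 genes in each of the 3 libraries, grouped by role, with 1 point per library and points at 0.1 for libraries with 0 counts. Among the 50 genes, the constitutive subunits of the core and regulatory particles lie between 51.2 and 331 TPM on average, while Psmb8, Psmb9, Psma8 and Psmb11 lie below 1 TPM in every library.

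All 14 constitutive core subunits (Psma1 to Psma7 and Psmb1 to Psmb7) were detected, with a median of 148 ± 5.004 TPM (SD, n = 3). The alpha ring subunits had a median of 129 ± 6.27 TPM and ran from Psma2 at 65.1 ± 3.02 TPM to Psma6 at 218 ± 10.2 TPM. Psma1 and Psma7 were even across libraries, at 146, 155 and 148 TPM and at 135, 130 and 140 TPM. Psma4 was lower in replicate 3 than in the others (149, 155 and 123 TPM), while Psma3 was higher there (81.1, 83.5 and 101 TPM). Psma5 measured 81.0, 85.4 and 79.9 TPM. The alpha genes thus formed an upper set of Psma6, Psma1, Psma4 and Psma7 and a lower set of Psma3, Psma5 and Psma2. The sets did not overlap at the deposited lengths and without counts of pseudogenes. The 4 beta subunits without a proteolytic site had a median of 205 ± 2.82 TPM. Psmb1 was highest among them at 349, 309 and 320 TPM, and Psmb3 was lowest at 72.5, 81.5 and 71.6 TPM. Psmb4 measured 239, 225 and 224 TPM and Psmb2 measured 176, 179 and 185 TPM, both between these extremes with no overlap with either. Although the 14 proteins are present in equal numbers in each core particle, their transcripts were not: the highest exceeded the lowest 6.40 ± 0.583-fold (n = 3), and in each library these were Psmb1 and Psmb7. The SD of log2 TPM over the 14 genes was 0.829 ± 0.0214.

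The spread among core subunits depended on the gene length used. The deposited length merges all annotated exons, and for Psmb7 it was 3421 bp, against 1160 bp for the longest complete coding transcript. For Psmb1 the order was the opposite, with 1036 bp merged and 1970 bp in the longest coding transcript of GENCODE vM21. Merged exons shorter than a transcript mean that Psmb1 was counted on another gene model than that of vM21. Reads on bases outside the counted model are missing, so the level of Psmb1 with the coding transcript length may be too low. The same holds for Psmb5 (871 and 899 bp), Psmc6 (1564 and 2234 bp) and Psmg2 (1059 and 1300 bp). With the coding transcript length Psmb1 fell from 326 to 124 TPM and Psmb7 rose from 51.2 to 109 TPM. The highest and lowest core subunits were then Psmb4 at 272 TPM and Psma2 at 59.2 TPM, a ratio of 4.66. This ratio carries the limit given for Psmb1. In all, 6 of the 14 core subunits moved in TPM by more than 1.5-fold with this length. TPM was rescaled over all nuclear protein-coding genes with the new lengths, so these shifts are not from a gene's own length alone. Psmg4, with 555 bp under both lengths, moved from 52.3 to 37.6 TPM by the rescaling.

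**Figure D2:**
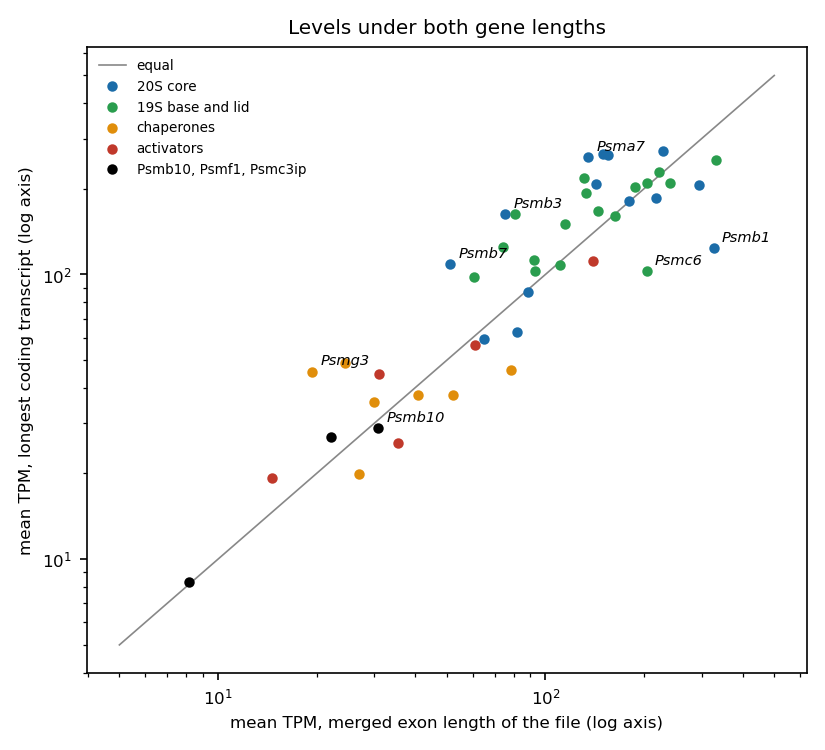
Mean TPM (n = 3) of the 46 detected genes with the merged exon length of the count table (horizontal, log axis) and with the length of the longest complete coding transcript (vertical, log axis). Points above the line of equality, such as Psmb7 and Psmb3, are genes whose merged exons are longer than that transcript. Psmb1 and Psmc6 lie furthest below the line among the labelled genes, and their merged exons are shorter than that transcript. A gene of unchanged length also lies below the line, because TPM was rescaled over all nuclear protein-coding genes with the new lengths.

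The core-particle transcripts have processed copies elsewhere in the genome, and counts were assigned to some of them. These annotated pseudogenes were matched to the 50 genes by their shared 50-base words. Of 13 pseudogenes with at least 10% of their words in a proteasome gene, 12 had more than 3 counts over the 3 libraries. Gm13835, all of whose words (100%) occur in Psma3, held 1974, 1193 and 678 counts against 2630, 1435 and 1011 for Psma3, which is 75.7% of the Psma3 count. For Psma5 there were 2 such copies, Gm8394 with 76.6% and Gm12989 with 57.9% of its count. With copy counts added, Psma5 moved from 82.1 to 192 TPM and Psma3 from 88.5 to 155 TPM, both more than 1.5-fold. Psmb5, with Gm3375, moved from 295 to 361 TPM and then exceeded Psmb1. Whether the reads assigned to these copies came from the copies or from the parent genes was not tested, so the levels of Psma3 and Psma5 are uncertain by these amounts.

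**Figure D3:**
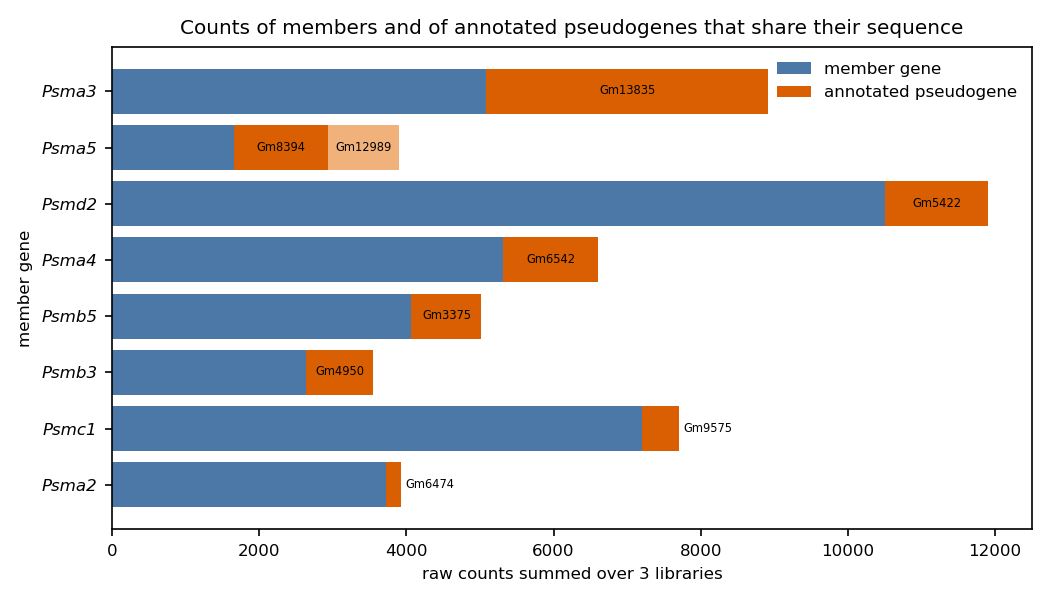
Raw counts summed over the 3 libraries for the 8 genes whose pseudogene copies held more than 100 counts (blue) and for those copies (orange, labelled by name). The copies of Psma5 together held more counts than Psma5, and Gm13835 held 3845 counts beside 5076 for Psma3.

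The comparison of the constitutive with the immunoproteasome subunits showed a strong asymmetry between the 3 exchangeable positions. Psmb8 and Psmb9, which carry the altered beta5 and beta1 sites, were nearly absent. Psmb10, which carries the altered beta2 site, was detected in all 3 libraries at a level below that of Psmb7. It was 1.65-fold below Psmb7 at the deposited lengths and 3.75-fold below with the coding transcript length. Each pair is a pair of paralogs, and the coding sequences are similar but distinct enough to be told apart. Aligned over their coding sequences, Psmb5 and Psmb8 were 63.7% identical, Psmb6 and Psmb9 61.1% and Psmb7 and Psmb10 61.5%, and the longest identical run in any pair was 18 bases. The most similar 60 bases of each pair are shown because they are where a read of one subunit would most resemble its partner. Capitals mark the bases that differ, of which there are 10, 12 and 13 in the 3 windows, and all sequences are GENCODE vM21 coding sequences on GRCm38 read in the sense direction.
Psmb5 (chr14:54614120-54617995, minus strand, coding bases 460 to 519): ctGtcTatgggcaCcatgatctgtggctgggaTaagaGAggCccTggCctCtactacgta
Psmb8 (chr17:34197721-34201454, plus strand, coding bases 499 to 558): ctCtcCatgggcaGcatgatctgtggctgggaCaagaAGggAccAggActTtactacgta
Psmb6 (chr11:70525367-70527858, plus strand, coding bases 461 to 520): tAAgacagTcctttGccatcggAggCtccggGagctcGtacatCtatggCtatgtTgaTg
Psmb9 (chr17:34181988-34187764, minus strand, coding bases 419 to 478): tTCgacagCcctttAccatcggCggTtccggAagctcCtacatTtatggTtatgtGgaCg
Psmb7 (chr2:38588036-38644087, minus strand, coding bases 232 to 291): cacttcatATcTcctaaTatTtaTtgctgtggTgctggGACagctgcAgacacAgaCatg
Psmb10 (chr8:105935735-105938444, minus strand, coding bases 220 to 279): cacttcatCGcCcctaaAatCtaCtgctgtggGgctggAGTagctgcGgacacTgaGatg
The coordinates are those of the whole gene.

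At the beta5 position, Psmb5 measured 319, 303 and 264 TPM and Psmb8 measured 0.0878, 0.414 and 0.284 TPM. The Psmb8 values rest on 2, 5 and 2 counts. A count of 3, the upper limit that a count of 0 allows, corresponds to 0.132, 0.249 and 0.426 TPM for Psmb8 in the 3 libraries, so replicates 1 and 3 did not exceed it. Per base of exon, Psmb8 was at 0.0704% of Psmb5 over the 3 libraries (exact binomial 95% interval 0.0322 to 0.134%). This and the following intervals cover counting error only, since reads of amplified libraries are not independent molecules. On the scale log2(TPM + 0.1), Psmb8 was lower than Psmb5 in 3 of 3 libraries, with a difference of -9.79 ± 0.82 (SD, n = 3). It was -7.88 with a pseudocount of 1 and -9.08 with the coding transcript length.

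At the beta1 position, Psmb6 was even across libraries at 155, 153 and 158 TPM. Its counterpart Psmb9 measured 0.230, 0.310 and 0.318 TPM from 7, 5 and 3 counts, and replicate 3 did not exceed the count of 3 used for Psmb8. Psmb9 thus stood at 0.173% of Psmb6 (0.0965 to 0.285%), a log2 difference of -8.66 ± 0.19 (SD, n = 3), lower in 3 of 3 libraries, and -6.93 with a pseudocount of 1. Part of its exon sequence (5.79%) overlaps Tap1, an MHC class I peptide transporter gene on the opposite strand that was itself low at 1.45 ± 0.119 TPM. Since the strand setting of the counting is not given in the sources used here, reads of that stretch cannot be assigned to either gene with certainty.

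At the beta2 position the ratio was of another order. Psmb7 measured 53.0, 53.9 and 46.6 TPM and Psmb10 measured 32.2, 30.04 and 30.3 TPM, from 457, 226 and 133 counts. The ranges did not overlap, but Psmb10 stood at 59.9% of Psmb7 (55.3 to 64.8%), a log2 difference of -0.73 ± 0.11 (SD, n = 3), which is 1.65-fold. With the coding transcript length the difference was -1.91, or 3.75-fold, because the level of Psmb7 rises with that length. Nek6, a kinase gene on the opposite strand with 2225, 1137 and 674 counts, overlaps 11.8% of the exon sequence of Psmb7. Psmb10 shared none of its 50-base words with another gene and overlapped no other gene, so its counts are not open to the reassignment described for Psma3. Its coefficient of variation (CV) between libraries was 6.94%, close to the 6.86% that counting error alone gives at this depth.

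**Figure D4:**
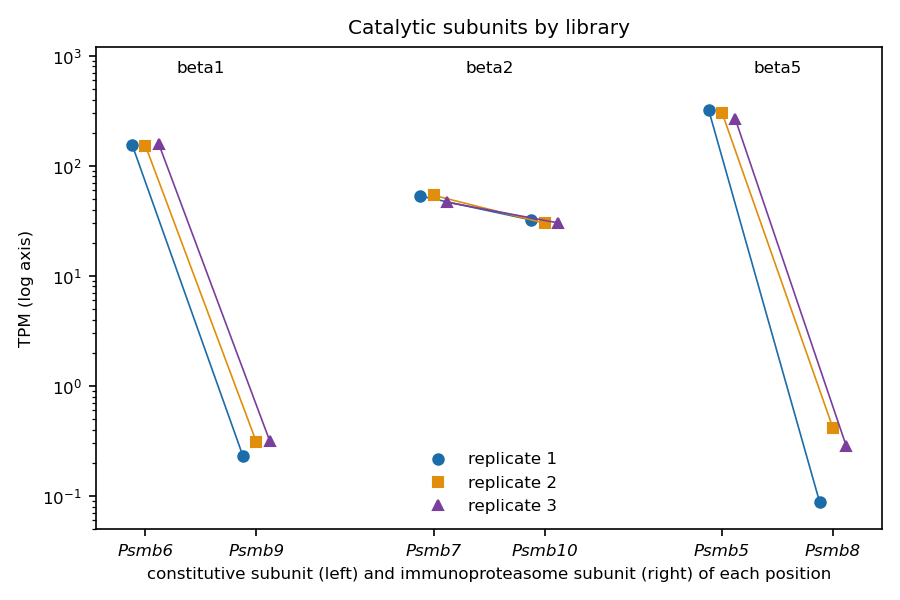
TPM (log axis) of the constitutive subunit (left) and the immunoproteasome subunit (right) at the beta1, beta2 and beta5 positions, with a line joining the values of each of the 3 libraries. Psmb8 and Psmb9 stay below 0.5 TPM in every library. At the deposited lengths, which are drawn here, Psmb10 lies between 30.04 and 32.2 TPM, next to Psmb7.

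The median of the 14 core subunits exceeded the median of the 3 immunoproteasome subunits by 8.49 ± 0.30 on the log2 scale (n = 3). That median is the value of Psmb8 or Psmb9 and depends on the pseudocount, and averaging the log2 values, which lets Psmb10 count, gave a difference of 6.42. As a share of the summed TPM of the 6 catalytic genes, the immunoproteasome subunits took 5.81, 5.70 and 6.18%, nearly all of it Psmb10, since Psmb8 and Psmb9 took only 0.123 ± 0.0490% of the TPM of Psmb5, Psmb6, Psmb8 and Psmb9. Each of the 10 differences between genes or gene groups given here had the same sign in 3 of 3 libraries, and each had p = 0.25 (adjusted p = 0.25) in the two-sided exact sign-flip permutation test, the smallest p that 3 libraries allow. The test therefore could not reach 0.05 for any of them.

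Transcripts of other cell types were present in the libraries. Markers of microglia and endothelial cells were present at the sums given above, and the counts of Psmb8 and Psmb9 are too few to order the libraries. The part of these cells in the immunoproteasome values was not tested. In bulk libraries, fewer cells that make a transcript and less transcript per cell cannot be told apart. Of 15 genes for MHC class I presentation and interferon signalling, 14 were detected. Nlrc5, the transactivator of MHC class I genes, was the exception with 6, 1 and 0 counts. The interferon-gamma receptor chain Ifngr2 at 117 ± 1.04 TPM and B2m, the light chain of MHC class I, at 115 ± 7.83 TPM were the highest of this list. The other chain of that receptor, Ifngr1, measured only 5.52, 6.05 and 7.36 TPM. Of the MHC class I heavy chains, H2-K1 measured 2.53, 6.69 and 4.76 TPM and H2-D1 measured 17.5, 23.4 and 18.4 TPM. Tap1 was the lowest of the 14 detected.

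Both tissue-specific core subunits had 2 counts in replicate 1 and 0 in replicates 2 and 3. Psma8 takes the place of Psma7 in spermatocytes, and its pooled level was 0.0573% of Psma7 (exact binomial 95% interval 0.00694 to 0.207%). Psmb11 is the beta5 form of the thymic cortex, and it was at 0.0101% of Psmb5 (0.00122 to 0.0364%). These counts are too few to tell low expression of either from none at this depth.

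In the regulatory particle all 17 subunits that match the naming rule were detected. Adrm1 and Sem1 are also subunits of this particle but do not match the rule, and they measured 39.3 ± 2.78 and 42.7 ± 5.80 TPM. Base and lid below mean the subunits among the 50 genes. The 6 ATPases of the base had a median of 216 ± 5.39 TPM (SD, n = 3), with the deposited lengths the highest of any role. Psmc5 had the highest mean of all 50 genes at the deposited lengths, with 341, 333 and 320 TPM, although its range overlapped that of Psmb1. It stood at 253 TPM, below Psmb4, with the coding transcript length, and below Psmb5 once pseudogene counts were added. Psmc2 was the lowest ATPase at 83.4, 75.7 and 82.5 TPM. The other four ran from Psmc1 at 243, 259 and 219 TPM and Psmc3 at 240, 226 and 202 TPM to Psmc6 at 202, 188 and 220 TPM and Psmc4 at 180, 207 and 175 TPM, with ranges that overlapped except for those of Psmc1 and Psmc4. Psmc2 rose to 163 TPM and Psmc6 fell to 103 TPM with the coding transcript length, so the low rank of Psmc2 held only for the deposited length. The fall of Psmc6 carries the limit given for Psmb1, since its counted gene model was also shorter than that transcript. The other base subunits, the scaffold proteins Psmd1 and Psmd2 and the ubiquitin receptor Psmd4, measured 74.4 ± 3.36, 163 ± 18.7 and 145 ± 4.04 TPM. Psmd2 was the least even of these at 181, 164 and 144 TPM, lowest in replicate 3. The median of the 9 base subunits exceeded that of the 14 core subunits by 0.29 ± 0.0054 on the log2 scale. This direction did not hold with the coding transcript length, under which the difference was -0.082, so no order of base and core was established. That length does not match the counted gene model of Psmb1, Psmb5 and Psmc6.

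The 8 lid subunits had a median of 111 ± 1.27 TPM and ran from Psmd11 at 60.7 ± 4.14 TPM to Psmd7 at 204 TPM. Psmd14, the deubiquitinase that cleaves the ubiquitin chain from the substrate, measured 113, 116 and 114 TPM, one of the most even genes of the family. Psmd7, its structural partner in the lid, measured 216, 205 and 192 TPM, above Psmd14 in every library. Psmd6, Psmd12 and Psmd13, structural subunits of the lid, had means of 133 ± 5.76, 111 ± 8.24 and 92.3 ± 0.412 TPM, and Psmd8 measured 97.9, 89.6 and 90.8 TPM. Psmd3 was the least even lid gene at 139, 144 and 110 TPM, lowest in replicate 3. The lid median was below the core median by -0.42 ± 0.05 on the log2 scale (n = 3), lower in 3 of 3 libraries, and stayed below it with the coding transcript length at -0.47.

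The dedicated assembly chaperones, which guide the rings together and leave the finished particle, had a lower median than its subunits. All 7 were detected, with a median of 31.4 ± 1.98 TPM (SD, n = 3), 4.72-fold below the core median (log2 difference -2.24 ± 0.14, 3 of 3 libraries). Single genes overlapped at the deposited lengths, where Psmg2 lay above the subunits Psmb3, Psmd1, Psma2, Psmd11 and Psmb7 in mean TPM. With the coding transcript length Psmg2 was at 46.1 TPM, below each of these subunits, of which Psma2 was lowest at 59.2 TPM. That length does not match the counted gene model of Psmg2. The alpha ring chaperones spanned Psmg2 at 81.3, 87.5 and 67.1 TPM, Psmg4 at 41.1, 49.4 and 66.4 TPM, Psmg1 at 43.1, 38.1 and 41.0 TPM and Psmg3 at 16.02, 21.0 and 21.1 TPM. Psmg1 and Psmg2 act as a pair, as do Psmg3 and Psmg4, and in each pair the library values did not overlap at the deposited lengths. With the coding transcript length Psmg3 rose to 45.6 TPM, and Psmg4, of 555 bp under both lengths, was at 37.6 TPM after the rescaling. This turned the order of that pair. Psmg2 and Psmg1 came to 46.1 and 37.7 TPM. The base chaperones Psmd5, Psmd9 and Psmd10 measured 30.02 ± 1.29, 24.4 ± 3.26 and 26.9 ± 5.67 TPM at the deposited lengths and 35.5, 49.0 and 19.9 TPM with the coding transcript length. Pomp, the chaperone of beta ring assembly, is outside the naming rule and measured 46.0 ± 2.90 TPM, inside the range of this group.

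Among the activators, which open the core particle in place of or beside the regulatory particle, Psme3 was the highest. Psme3 encodes the nuclear PA28 gamma, and its 138, 141 and 140 TPM (CV 3.38%) were among the most even values of the family. Psme4, the gene for the nuclear activator PA200, measured 55.6, 57.0 and 70.5 TPM, a log2 difference to Psme3 of -1.20 ± 0.18. The interferon-inducible pair was lower again. Psme1 (PA28 alpha) measured 38.0, 32.4 and 23.0 TPM and Psme2 (PA28 beta) 15.5, 18.6 and 9.68 TPM, with log2 differences to Psme3 of -2.19 ± 0.38 and -3.30 ± 0.48 (n = 3, 3 of 3 libraries each). With the coding transcript length these differences were -1.35 and -2.58, both still below Psme3. Both genes were lowest in replicate 3, the library with the highest microglial and endothelial marker sums, and the part of cell type or depth in this was not tested.

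Psme2 has a near-identical intronless copy, Psme2b, and the split between them decides the level of both. Their coding sequences of 720 bases differ at 5 positions (99.3% identity), with a longest identical run of 311 bases, longer than the 150 bp reads. Psme2 and Psme2b held 228 and 233 counts in replicate 1, 145 and 145 in replicate 2, and 44 and 73 in replicate 3. The 90 bases that hold 3 of the 5 differences are shown because they are the stretch of coding sequence with most power to separate the genes. Capitals mark the differing bases, and the sequences are GENCODE vM21 coding bases 454 to 543 on GRCm38.
Psme2 (chr14:55587441-55591113, minus strand): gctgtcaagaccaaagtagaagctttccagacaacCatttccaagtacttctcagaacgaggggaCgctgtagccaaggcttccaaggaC
Psme2b (chr11:48945354-48946190, minus strand): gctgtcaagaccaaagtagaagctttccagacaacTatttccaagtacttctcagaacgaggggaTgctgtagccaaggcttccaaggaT
The 50-base words of Psme2b were found in another gene for 69.3% of its sequence and those of Psme2 for 28.3%. With the counts of Psme2b added to Psme2, the difference between Psme2 and Psme3 was -2.17 in place of -3.30, so Psme2 then stood next to Psme1. It was still below Psme3 in every library.

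Psmf1, the gene for the proteasome inhibitor PI31, measured 22.7, 21.5 and 22.1 TPM and varied little (CV 5.37%). Psmc3ip entered through its symbol only. It encodes a partner of meiotic recombinases and is not a proteasome subunit, and it measured 8.25, 10.1 and 6.19 TPM, the lowest of the 46 detected genes.

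The family varied between libraries about as much as other genes. A CV of normalized counts below 10% was found for 30 of the 46 detected genes (65.2%), beside 58.5% of all 12465 detected protein-coding genes. The median CV was 8.08% for the family and 8.75% for all detected protein-coding genes. Without replicate 2 the order of these medians turned, to 9.83 and 8.19%, and without replicate 3 both fell, to 4.88 and 5.87%, so the values rest on which libraries are compared. The most even genes were Psmd6 (CV 1.07%) and Psmb2 (1.37%), and the least even were Psme2 (33.3%), Psme1 (27.6%), Psmc3ip (26.1%) and Psmg4 (20.8%). For Psme2 and Psme1 counting error alone gives 10.6 and 6.38%, less than what was seen.

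The departures between libraries were shared by many subunits of the core and base. In replicate 3, 13 of the 14 core subunits were below their own mean over the libraries, with a median log2 deviation of -0.096, beside 57.8% of all detected protein-coding genes and a median of -0.029. In replicate 1, 12 of the 14 were above it, beside 7972 of the 12465 detected protein-coding genes. The base showed the same arrangement, with 8 of 9 subunits below their mean in replicate 3. The lid showed it less clearly, with 5 of 8 subunits below their mean in that library and a median log2 deviation of -0.068. The assembly chaperones did not show it, with 4 of 7 above their mean there. Replicate 3 had the lowest depth and the highest endothelial, microglial and astrocyte sums, and the part of these in the lower core levels was not tested.

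**Figure D5:**
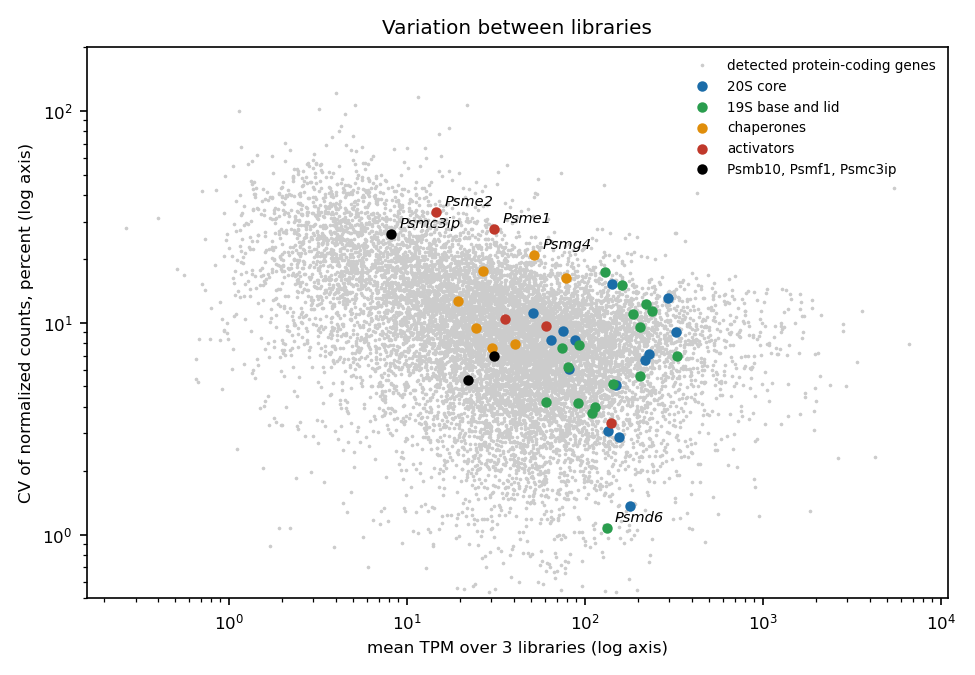
CV between the 3 libraries (percent, log axis) against mean TPM (log axis) for all 12465 detected protein-coding genes (grey, the few under 0.5% not drawn) and for the 46 detected genes of the family, coloured by role. Most of the family lies within the grey cloud, with Psme2, Psme1 and Psmc3ip highest at 33.3, 27.6 and 26.1% and Psmd6 lowest at 1.07%.

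4 kinds of short sequence were looked for in the promoter windows of RefSeq (GRCm38.p6, 250 bases before to 50 after the start), of which 42 of the 50 genes had one. TGACNNNGC is the core of the antioxidant response element, to which the factors encoded by Nfe2l1 and Nfe2l2 bind, and Nfe2l1 is the known activator of proteasome genes when proteasome activity is low. It was found on either strand in 6 of the 42 (14.3%) and in 14% of all 27025 genes with a window. GAAA, any 2 bases and GAAA again, the interferon-stimulated response element, was in 5 (11.9%), beside 3.99% of all genes with a window. TTCNNNGAA, the gamma-activated site, was in 3 (7.14%), beside 9.55%, and CCAAT was in 15 (35.7%), beside 41.1%. The windows around the matches of the catalytic subunits and of Psme1 to the first 3 motifs are shown, in the direction of the gene and with the match in capitals, to show the letters matched, with Psmb7 without a window. The CCAAT match of Psmb9 at -8, read on the opposite strand, is not shown. The other genes with the interferon-stimulated element were Psmb3, Psmd4, Psmd9 and Psmg4, none of them an immunoproteasome subunit.
Psmb5 (chr14:54618024-54618052, minus strand, TGACNNNGC): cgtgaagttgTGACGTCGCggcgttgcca
Psmb6 (chr11:70525338-70525366, plus strand, TGACNNNGC): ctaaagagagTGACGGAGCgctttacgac
Psmb8 (chr17:34198088-34198116, plus strand, TTCNNNGAA): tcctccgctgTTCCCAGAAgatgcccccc
Psme1 (chr14:55578493-55578522, plus strand, the interferon-stimulated element read on the opposite strand): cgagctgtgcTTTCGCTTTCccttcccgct
The matches lie at -47 in Psmb5, -9 in Psmb6, -97 in Psmb8 and 9 in Psme1, counted in bases from the RefSeq start. Psmb9 and Psmb10 held none of the first 3 motifs in their windows. A match is a description of the letters and not of a bound site.

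Other proteasome genes and the genes that work next to the proteasome were expressed throughout. All 8 listed genes for proteasome subunits and associated proteins outside the naming rule were detected. They ran from the ubiquitin receptor Adrm1 at 39.3 ± 2.78 TPM to the base-associated Txnl1 at 109 ± 3.82 TPM. The deubiquitinase Usp14 measured 81.7 ± 6.44 TPM. Of the factors that control proteasome genes, Nfe2l1 measured 215, 212 and 204 TPM and its relative Nfe2l2 3.26, 2.99 and 4.29 TPM, far apart in every library. The other genes of that list, the protease Ddi2 and the deglycosylase Ngly1, which process the Nfe2l1 protein, and the ATPase Vcp, were at 43.0 ± 1.86, 15.3 ± 3.23 and 124 ± 2.98 TPM. All 10 genes for ubiquitin, its activation and its shuttle receptors were detected, led by the polyubiquitin gene Ubb at 1021 ± 90.5 TPM.

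The 50 genes are spread over 16 chromosomes. Chromosome 11 held 10 of them (20%), beside 7.51% of nuclear protein-coding genes. Psmb5 and Psmb11 lie 7314 bp apart on chromosome 14 at 295 ± 27.9 and 0.0188 TPM, the latter from 2 counts in 1 library. Psmb9 and Psmb8 lie 9956 bp apart on chromosome 17, and both were under 0.5 TPM in every library. Psme1 and Psme2 lie 5911 bp apart on chromosome 14, and both were lowest in replicate 3.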

How the data were processed

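Poly(A) RNA of 3 pools of sorted cells was read from both ends at 150 bp. The deposited values are raw counts per gene, which per the submitters' processing notes were made with STAR and featureCounts on mm10/GRCm38. The deposited length per gene (other unit: bp of merged exons) came with them. Versions, annotation release, strand, handling of multimapped reads and whether reads or fragments were counted are not given in the sources used here. The start and end of 43 of the 50 genes were the same in the count table and in GENCODE vM21. No column was left out.

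TPM was computed from counts and lengths over nuclear protein-coding genes, which keeps short noncoding features out of the denominator. Log2 values had a pseudocount of 0.1. Detection was a CPM of at least 1 in each library. CV used counts divided by median-of-ratios size factors (1.78, 0.963 and 0.592). Differences between genes were taken within each library and tested by a two-sided exact sign-flip permutation test with Benjamini-Hochberg adjustment over 10 differences. With 1 group no test across genes could be run, and edgeR 4.0.16 (R 4.3.3) supplied TMM factors only. The scripts, in Python 3.11.15 with numpy 2.4.6, scipy 1.17.1 and pandas 2.3.3, were tested on simulated data. Alternatives were the gene length, pseudocount, denominator, filter, normalization, summary and each replicate left out.

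All genes matching the naming rule were named, other genes came from lists by role and cell type, and pseudogenes were named by shared sequence. The members and lists were chosen with earlier results of these data known. The motifs, sequence windows, pseudogene counts and the addition of Psme2b were chosen after the values were seen. The lymphocyte marker list is not reported here.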

Additional observations from a re-analysis of the deposited data

Results flagged for a closer look

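Counts were found in annotated pseudogenes of the proteasome genes, which the comparisons between genes do not use, above the 3 counts that a count of 0 allows. Over the 3 libraries Gm13835 held 3845 counts, Gm5422 1408, Gm6542 1290, Gm8394 1273, Gm12989 962, Gm3375 952, Gm4950 899, Gm9575 504, Gm6474 203, Gm4742 47, Gm7776 15 and Gm5406 11. They share sequence with Psma3 (Gm13835, Gm4742 and Gm5406), Psmd2 (Gm5422), Psma4 (Gm6542), Psma5 (Gm8394 and Gm12989), Psmb5 (Gm3375), Psmb3 (Gm4950), Psmc1 (Gm9575), Psma2 (Gm6474) and Psme1 (Gm7776). Of the pseudogenes named after a proteasome gene, Psmb6-ps2 held 11 counts (5, 6 and 0), Psmb7-ps2 5 and Psmb6-ps 4, the last pair in replicate 1 only. The origin of these reads was not tested.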

How the results depend on the processing

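Every difference between genes or gene groups kept its direction under each alternative run, except that base minus core turned to -0.082 with the coding transcript length. With that length (182 genes without a complete coding transcript kept the deposited length) the immunoproteasome share was 4.91%, the SD of log2 TPM over the core 0.765, the highest-to-lowest core ratio 4.66, the summed TPM 5842 and the median 110 (109.63). With TPM over all genes the sum was 1696 and the median 26.7 TPM. With pseudogene counts added, an alternative chosen after seeing the data, the same quantities were 5.26%, 0.773, 7.10, 5744 TPM and 96.7 TPM. With no filter the median CV of protein-coding genes was 12.2%. With a replicate left out the median CV ran from 4.88 to 9.83% for the family and from 5.87 to 8.19% for protein-coding genes. A pseudocount of 1 gave -7.88 for Psmb8 minus Psmb5, -6.93 for Psmb9 minus Psmb6 and 6.82 for core minus immunoproteasome. Under other filters 46 to 50 genes were detected. Of 410 alternative values for 68 results, 299 were counted as unchanged, 110 as moved and 1 as reversed. Unchanged meant the same sign for differences and a shift below the SD between replicates for levels, shares and spreads. A fixed fold limit was used for CVs and numbers detected. With a replicate left out, the differences, levels, shares and spreads could only be counted as unchanged, so those entries test nothing. No paired analysis was possible because there was only 1 group, so replicate numbers pair no samples across groups (the differences between genes were taken within each library). Depth limits Psmb8, Psmb9, Psma8 and Psmb11, whose counts were between 0 and 7 in each library.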
